A study of Homo sapiens with 6 samples.

Results

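The genes described here are 10 transcriptional outputs and feedback regulators of the ERK branch of MAPK signalling: DUSP4, DUSP5, DUSP6, SPRY2, SPRY4, SPRED1, SPRED2, ETV4, ETV5 and PHLDA1. The 10 were chosen by symbol, with earlier results of these data known. They are 10 of the 23698 gene rows that each library holds, with 1 row per symbol. They were measured by poly(A) RNA-seq in MV4-11, an established line from human acute myeloid leukaemia with an internal tandem duplication in FLT3 (FLT3-ITD). One group of 3 libraries came from MV4-11 cells stably transduced, by lentivirus, with a short hairpin RNA against PRMT5, an enzyme that places symmetric dimethyl marks on arginines. The other group of 3 came from MV4-11 cells transduced in the same way with a scrambled hairpin. The FLT3-ITD and the lentiviral transduction are therefore shared by both groups. No drug or ligand treatment is named for either, and all results come from 1 cell line. All 10 genes passed the filter on low counts, as did 13668 rows in all.

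ERK is switched on through a relay in which an active receptor loads RAS, RAS recruits RAF, RAF phosphorylates MEK, and MEK phosphorylates ERK. Active ERK then raises the transcription of genes whose products turn the relay down, so that the transcripts of these genes are widely used as a readout of ERK output. The dual-specificity phosphatases (DUSP) remove phosphate from ERK and related kinases, and the Sprouty (SPRY) and SPRED proteins act upstream, on the passage from receptor to RAS and RAF. ETV4 and ETV5 are ETS-family transcription factors of the PEA3 subfamily, and PHLDA1 is a pleckstrin-homology-like protein induced by growth factors. In FLT3-ITD leukaemia the mutant receptor is known to feed this relay without its ligand.

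Library totals were 16408484 to 19077106 estimated counts, with 16870 to 17295 rows above 0. The hairpin's target, PRMT5, was at 103, 71.6 and 53.0 CPM (counts scaled to library depth with TMM factors) in knockdown libraries 1 to 3. It was at 133 and 158 CPM in control libraries 1 and 3, with 53.2 CPM in the library labelled as scrambled control 2, whose level lies in the knockdown range and goes against its label. The log2 difference of PRMT5, knockdown minus control, was −0.60 (SE 0.43) and did not pass the test (edgeR adjusted p = 0.926). Without that library it was −0.94. Myelomonocytic leukaemia markers were present, 13 of 14 being tested. Their summed level was 2082 to 2976 CPM under the PRMT5 hairpin and 2418 to 2988 CPM in the control libraries, and ANPEP (CD13) was at most 0.567 CPM in any library. Within that list, the library labelled as scrambled control 2 was the lowest of the 6 for LYZ (35.3 CPM, elsewhere 430 to 1268) and MPO (13.8 CPM, elsewhere 56.5 to 503). By a smaller margin it was also the lowest for SPI1 (121 CPM, elsewhere 127 to 158) and for CD14, which was low in every library (0.389 CPM, elsewhere 0.418 to 1.09). It was the highest for ITGAM (115 CPM), CD4 (262 CPM), HOXA9 (296 CPM), MEIS1 (102 CPM) and PTPRC (380 CPM). T cell markers summed to at most 0.227 CPM and erythroid markers to at most 1.10 CPM, with CD3E, CD2, HBB and HBA1 at 0 throughout. The summed B cell markers, nearly all PAX5, were at 11.9 to 13.6 CPM under the PRMT5 hairpin and 6.61 to 16.0 CPM in the control libraries. The fibroblast sum was at most 4.99 CPM and the epithelial sum, from KRT8 and KRT18 with EPCAM at 0, was 15.3 to 52.1 CPM. The highest fibroblast and epithelial sums were both in the library labelled as scrambled control 2, and their part in the results below was not tested.

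None of the 10 feedback genes separated the PRMT5 hairpin from the scrambled hairpin. With edgeR's quasi-likelihood test 0 of the 10 had an adjusted p under 0.05, and 0 of the 10 had an unadjusted p under 0.05. Over all 13668 genes 0% passed after adjustment, and 1.77% had an unadjusted p under 0.05. DESeq2 and limma-voom also called 0 genes over the whole table, with 461 and 117 genes at an unadjusted p under 0.05. With 1 library left out, 0 genes were called by edgeR in any of the 6 fits, and the genes at an unadjusted p under 0.05 numbered 33 (without knockdown 1) to 1307 of 13936 (without control 3). In the fit without control 3, ETV4 and PHLDA1 were among them, with unadjusted p of 0.0268 and 0.0365 and an adjusted p of 0.524 for both in edgeR. In all, 7 had a negative log2 difference and 3 (DUSP4, SPRY4 and ETV5) a positive one, with a median of −0.16 beside −0.00069 over all tested genes, of which 50.1% were negative. Without the library labelled as scrambled control 2 the count was 4 negative and 6 positive, with a median of 0.067 beside 0.0017 over all genes. For 0 of the 10 genes did all 3 knockdown libraries lie on one side of all 3 controls, where 6.24% of all tested genes did. Fewer transcribing cells and less RNA per cell cannot be told apart in these bulk samples. Nothing in the labels states that the libraries came from separate cultures, so p-values measure only the spread between these libraries, which may be technical.

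**Figure D1:**
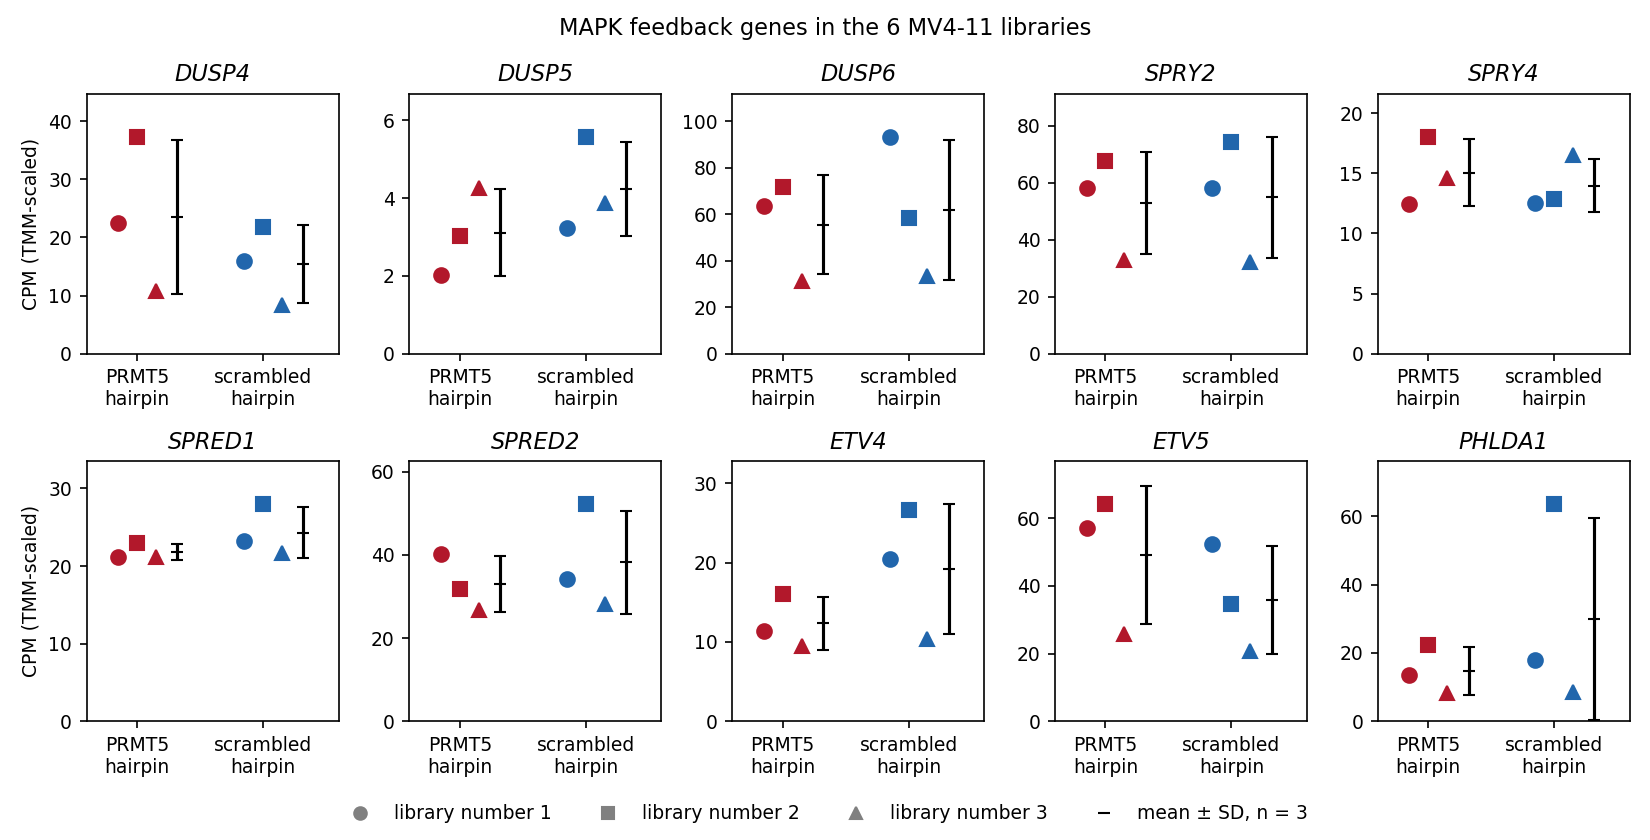
TMM-scaled CPM of the 10 genes in each library, with knockdown libraries in red, scrambled controls in blue, the marker shape giving the library number, and black bars giving the mean ± SD (n = 3). The ranges of both groups overlap in all 10 panels, and the libraries numbered 3 (triangles) are the lowest 2 of 6 for DUSP4, DUSP6, SPRY2, SPRED2, ETV4, ETV5 and PHLDA1.

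The DUSP genes encode phosphatases that act at the end of the relay. DUSP6, a cytoplasmic phosphatase selective for ERK, was at 63.4, 71.6 and 31.4 CPM in knockdown libraries 1 to 3, and at 93.3 and 33.3 CPM in control libraries 1 and 3 and 58.6 CPM in the library labelled as scrambled control 2. The highest value was in control 1 and the lowest in knockdown 3, with control 3 next to it, so that the spread ran between library numbers within both groups. The means were 55.5 ± 21.2 CPM (SD, n = 3) and 61.7 ± 30.1 CPM (SD, n = 3), a log2 difference of −0.15 (SE 0.44, 95% interval −1.18 to 0.87, edgeR adjusted p = 0.955). That sign rested on single libraries, since the log2 difference of DUSP6 was 0.13 without knockdown 3 and 0.27 without control 1.

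DUSP4, a nuclear phosphatase that acts on ERK and also on other MAP kinases, had the largest positive difference of the 10. It was at 22.5, 37.3 and 10.8 CPM in knockdown libraries 1 to 3, at 16.0 and 8.34 CPM in control libraries 1 and 3, with 21.7 CPM in the library labelled as scrambled control 2. Each knockdown library was above the control of the same number, while knockdown 3 was below 2 of the 3 controls. The group means were 23.5 ± 13.3 and 15.4 ± 6.72 CPM (SD, n = 3 each), and the log2 difference was 0.62 (SE 0.51, 95% interval −0.58 to 1.81, edgeR adjusted p = 0.926). Between libraries of the same number it was 0.49, 0.78 and 0.37 for numbers 1 to 3. Blocked by replicate number, the log2 difference was 0.55 (95% interval 0.0096 to 1.09), with an unadjusted p of 0.0471 and an adjusted p of 0.709 in edgeR, so DUSP4 was not called there either. It was 0.96 without the library labelled as scrambled control 2 and also without knockdown 3, 0.32 without control 3 and 0.12 without knockdown 2.

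DUSP5, a nuclear phosphatase selective for ERK, had the lowest counts of the 10, between 39.1 and 86.0 estimated counts per library. Its levels were 2.04, 3.04 and 4.27 CPM in knockdown libraries 1 to 3 and 3.23, 5.58 and 3.88 CPM across the libraries labelled as scrambled control 1 to 3. Here the low libraries were knockdown 1 and 2, and number 3 was not low in either group. The log2 difference was −0.44 (SE 0.42, 95% interval −1.42 to 0.54), and it was −0.19 without the library labelled as scrambled control 2, −0.22 without knockdown 1 and −0.74 without knockdown 3.

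Sprouty proteins act between receptor and RAF, and the group means of SPRY2 and SPRY4 were close. The Sprouty genes SPRY1 and SPRY3, which are not among the 10, were further apart, with log2 differences of −1.08 (SE 0.80) and 1.00 (SE 0.74). Both had their most extreme value in the library labelled as scrambled control 2. SPRY1 was at 11.3 CPM there and at 1.24 to 3.03 CPM elsewhere, and SPRY3 at 0.130 CPM there and at 1.36 to 2.61 CPM elsewhere. SPRY2 stood at 58.2, 67.7 and 33.0 CPM under the PRMT5 hairpin, at 58.2 and 32.2 CPM in control libraries 1 and 3, with 74.2 CPM in the library labelled as scrambled control 2. The libraries numbered 3 were near one another and well below the other 4 (58.2 CPM or more) in both groups. Its means were 53.0 ± 17.9 and 54.9 ± 21.2 CPM (SD, n = 3 each), and its log2 difference was −0.05 (SE 0.38, 95% interval −0.94 to 0.84, edgeR adjusted p = 0.987). The sign of SPRY2 was positive under total-count scaling (0.017), without knockdown 3 (0.20) and without the library labelled as scrambled control 2 (0.23). SPRY4 held 12.5, 18.0 and 14.7 CPM in knockdown libraries 1 to 3 and 12.5, 12.9 and 16.5 CPM across the libraries labelled as scrambled control 1 to 3. Its spread over the 6 libraries was narrow, with a highest value 1.45 times the lowest, and the low values were in the libraries numbered 1 and in the library labelled as scrambled control 2. The log2 difference of SPRY4 was 0.11 (SE 0.27, 95% interval −0.51 to 0.73), and −0.043 without knockdown 2.

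The SPRED proteins bind neurofibromin, the RAS inactivator encoded by NF1, and bring it to the membrane. SPRED1 was the steadiest of the 10 genes, at 21.1, 23.0 and 21.2 CPM in knockdown libraries 1 to 3, 23.2 and 21.7 CPM in control libraries 1 and 3, and 27.9 CPM in the library labelled as scrambled control 2. Its highest value was 1.32 times its lowest, where 91.9% of the 11066 genes averaging at least 5 CPM had as wide a range or wider. SPRED1 also had the narrowest 95% interval of the 10, −0.66 to 0.35 around a log2 difference of −0.16 (SE 0.22, edgeR adjusted p = 0.926), which was −0.042 without the library labelled as scrambled control 2. The value between same-numbered libraries was −0.13, −0.28 and −0.034, negative in 3 of 3.

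SPRED2 was at 40.2, 31.7 and 26.8 CPM under the PRMT5 hairpin, 34.2 and 28.2 CPM in control libraries 1 and 3, and 52.1 CPM in the library labelled as scrambled control 2. That library was the highest, and the libraries numbered 3 were the lowest 2. The log2 difference of −0.21 (SE 0.30, 95% interval −0.91 to 0.48) was 0.081 without the library labelled as scrambled control 2.

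ETV4 and ETV5, the PEA3-type transcription factor genes, lay on opposite sides of 0. ETV4 was at 11.4, 16.1 and 9.52 CPM in knockdown libraries 1 to 3, at 20.4 and 10.4 CPM in control libraries 1 and 3, with 26.7 CPM in the library labelled as scrambled control 2. Every knockdown library was below the control of its number, but control 3 was below knockdown 1 and 2. The means were 12.3 ± 3.39 and 19.2 ± 8.19 CPM (SD, n = 3 each), a log2 difference of −0.64 (SE 0.39, 95% interval −1.56 to 0.29). ETV4 had the smallest unadjusted p of the 10 (0.149) and an adjusted p of 0.926 in edgeR. Between libraries of the same number it was −0.84, −0.72 and −0.13, and without the library labelled as scrambled control 2 the log2 difference was −0.32.

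ETV5 was at 57.1, 64.1 and 25.8 CPM in knockdown libraries 1 to 3, and at 52.3 and 20.6 CPM in control libraries 1 and 3. In the library labelled as scrambled control 2 it was at 34.6 CPM, which for this gene was below the 3 other libraries numbered 1 or 2. Each knockdown library was above the control of the same number, by 0.13, 0.89 and 0.32 on the log2 scale, and knockdown 3 was below 2 of the 3 controls. The fitted log2 difference was 0.45 (SE 0.44, 95% interval −0.58 to 1.48, edgeR adjusted p = 0.926) and was nearly the same without the library labelled as scrambled control 2, at 0.43. It was 0.17 without control 3, 0.21 without knockdown 2, 0.76 without knockdown 3 and 0.83 without control 1. The difference between ETV4 and ETV5 was not tested.

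PHLDA1 had the largest difference in size, and 1 library carried it. Its levels were 13.4, 22.4 and 8.33 CPM in knockdown libraries 1 to 3 and 17.8 and 8.49 CPM in control libraries 1 and 3, against 63.6 CPM in the library labelled as scrambled control 2. Controls 1 and 3 lay within the range of the knockdown libraries. The means were 14.7 ± 7.13 and 30.0 ± 29.5 CPM (SD, n = 3 each), with a log2 difference of −1.02 (SE 0.72, 95% interval −2.71 to 0.66, edgeR adjusted p = 0.926). Without that library it was 0.17 (95% interval −0.98 to 1.31). The highest PHLDA1 value was 7.63 times the lowest, a range that 3.36% of genes averaging at least 5 CPM reached, where the median gene had 1.97 times.

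**Figure D2:**
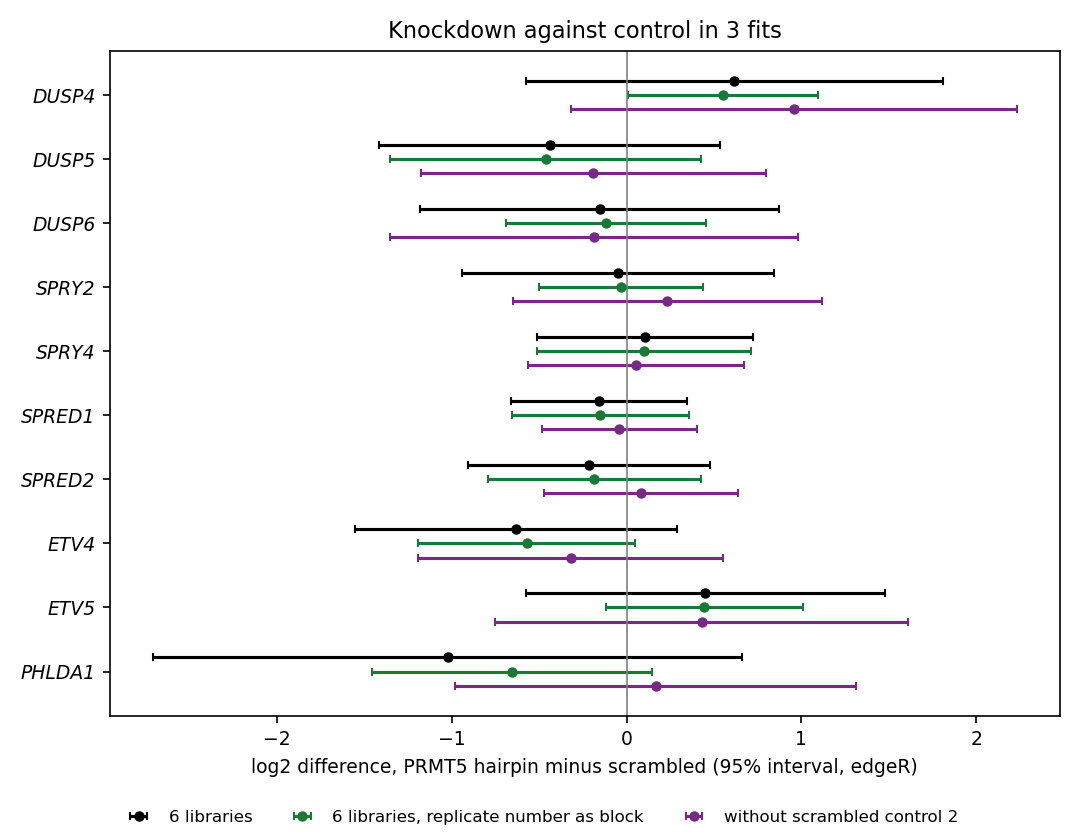
Log2 difference of each gene, PRMT5 hairpin minus scrambled, with its 95% interval from edgeR, in 3 fits: all 6 libraries (black), the same with the replicate number as a block (green) and 5 libraries without scrambled control 2 (purple). All intervals include 0 except that of DUSP4 with the block, 0.0096 to 1.09, and PHLDA1 goes from −1.02 with 6 libraries to 0.17 without scrambled control 2.

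The lowest values of most of these genes sat in the libraries numbered 3, under both hairpins. For 7 of the 10 genes (DUSP4, DUSP6, SPRY2, SPRED2, ETV4, ETV5 and PHLDA1) knockdown 3 and control 3 were the 2 lowest libraries, which held for 18.1% of all tested genes. It also held for 5 of the 10 tested relatives of these genes (DUSP1, DUSP8, DUSP16, SPRY1 and SPRED3), for 9 of the 29 relay genes and for 3 of the 10 other ERK output genes. The mean log2 CPM of the libraries numbered 3 minus that of the other 4 was −1.51 for PHLDA1, −1.28 for DUSP4, −1.13 for ETV5, −1.12 for DUSP6 and −0.98 for SPRY2. It was −0.83 for ETV4 and −0.50 for SPRED2, and for SPRED1, SPRY4 and DUSP5 it was −0.14, 0.17 and 0.31. This ordering was seen in the values first, so these differences are given without a test. The labels do not say what a library number stands for. Summed over the 10 genes, the level was 186 to 355 CPM under the PRMT5 hairpin and 184 to 378 CPM in the control libraries. Between the libraries numbered 3, differences were small: −0.17 to 0.37 on the log2 scale over the 10 genes, with a median of −0.031. These 2 libraries were the closest pair over all tested genes too, with Pearson's r of log2 CPM at 0.995 across genes. Pairs that include the library labelled as scrambled control 2 had 0.876 to 0.923, and all remaining pairs had 0.952 to 0.976. Between the libraries numbered 2, the differences of the 10 genes were −1.50 to 0.89 (median −0.21), and between those numbered 1 −0.84 to 0.49 (median −0.07). Of the 10 genes, 5 kept 1 sign in all 3 numbers, DUSP4 and ETV5 being higher and SPRED1, ETV4 and PHLDA1 lower in the knockdown library each time. Of all tested genes, 28.8% kept 1 sign.

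**Figure D3:**
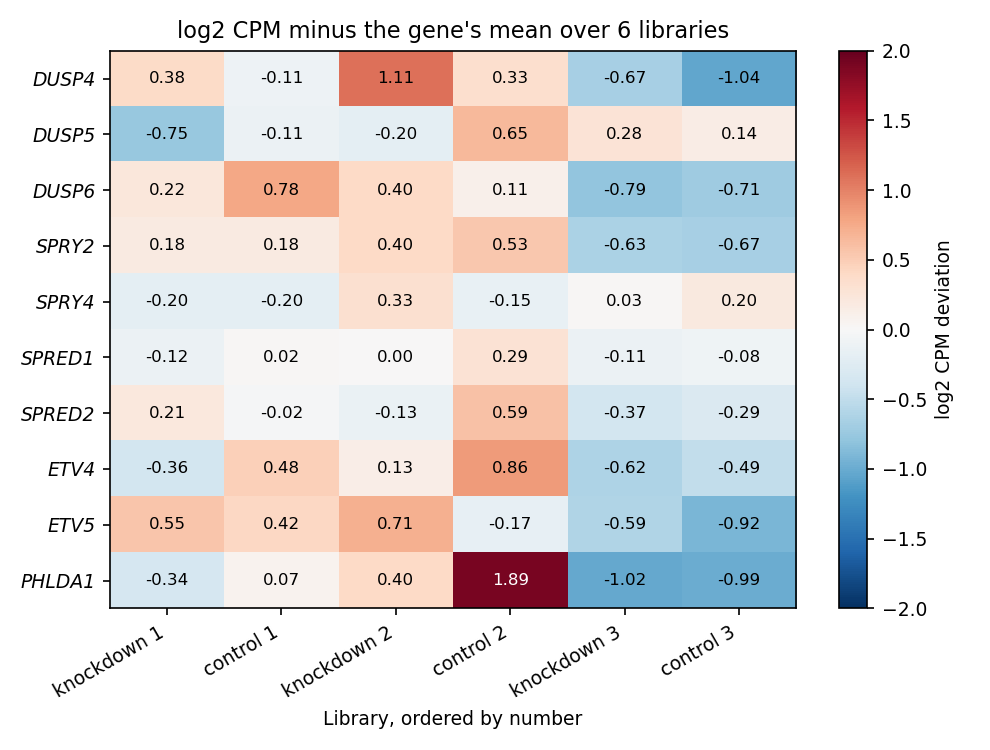
Log2 CPM of each gene minus its own mean over the 6 libraries, with libraries ordered by number and the colour scale running from −2 (blue) to 2 (red). Both libraries numbered 3 are below 0 for 8 genes, slightly for SPRED1 (−0.11 and −0.078) and by −0.29 (SPRED2, control 3) to −1.04 (DUSP4, control 3) for the other 7, and the darkest cell is PHLDA1 in control 2, at 1.89.

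**Figure D4:**
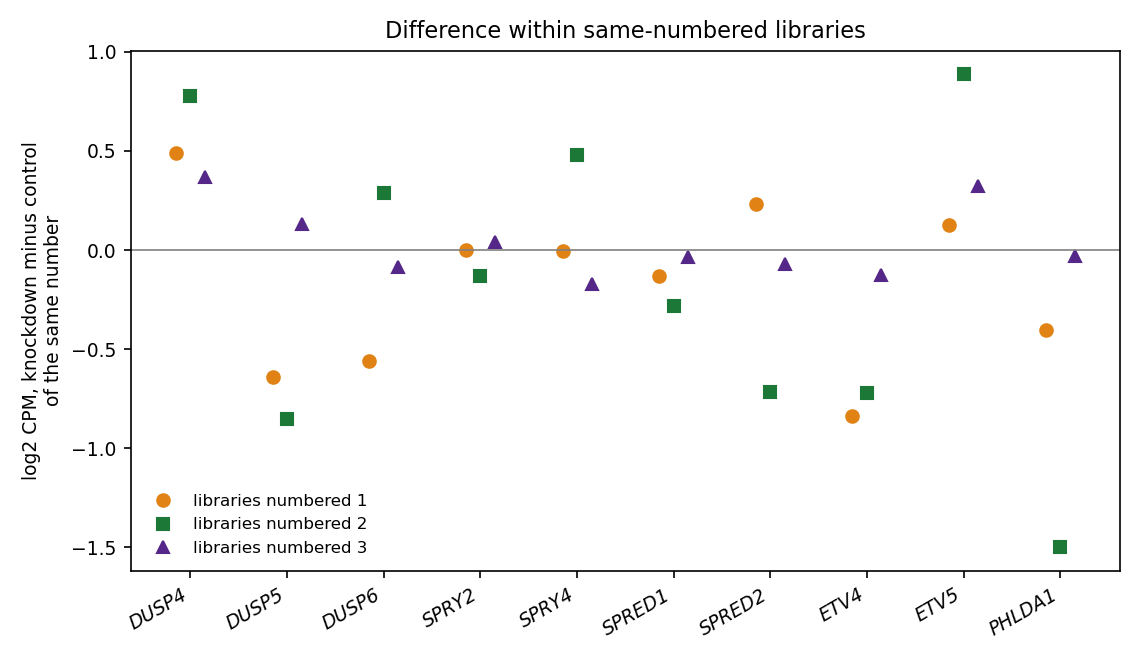
Log2 CPM of each knockdown library minus the control of the same number, with circles for number 1, squares for 2 and triangles for 3. The triangles stay between −0.17 and 0.37, and the squares span −1.50 (PHLDA1) to 0.89 (ETV5).

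The library labelled scrambled control 2 was the highest of the 6 for 6 of the 10 genes (DUSP5, SPRED1, SPRED2, SPRY2, ETV4 and PHLDA1). It was also the highest for 34.4% of all tested genes, and the lowest for 36.7% of them and for 0 of the 10. Its log2 CPM exceeded the mean of the other 5 libraries by 2.27 for PHLDA1, 1.03 for ETV4 and 0.78 for DUSP5. The excess was 0.71 for SPRED2, 0.64 for SPRY2, 0.40 for DUSP4 and 0.34 for SPRED1. For DUSP6 the excess was 0.13, and for SPRY4 and ETV5 it was −0.19 and −0.21.

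Start-site sequence is shown for 3 genes, DUSP6, SPRY2 and PHLDA1, which were all low in the libraries numbered 3. SPRY2 and PHLDA1 were also highest in the library labelled as scrambled control 2. SPRED2 and ETV4 were likewise low in the libraries numbered 3 and highest in that library, and their sequences are not shown. A link between sequence and library pattern was not tested. Each sequence shown is the 250 bases before the most upstream start in RefSeq's table on build GRCh38.p14. It is read 5′ to 3′ on the gene's strand, which is the minus strand for all 3. The counts themselves were made on hg19, and no coordinates were carried between builds. Capitals mark only CGGAAG or its reverse complement, letters that hold the GGAA core bound by ETS factors. GGAA outside CGGAAG is left in lower case and occurs in each window shown. The windows are chr12:89352502-89352751 for DUSP6, chr13:80341127-80341376 for SPRY2 and chr12:76031777-76032026 for PHLDA1.
DUSP6: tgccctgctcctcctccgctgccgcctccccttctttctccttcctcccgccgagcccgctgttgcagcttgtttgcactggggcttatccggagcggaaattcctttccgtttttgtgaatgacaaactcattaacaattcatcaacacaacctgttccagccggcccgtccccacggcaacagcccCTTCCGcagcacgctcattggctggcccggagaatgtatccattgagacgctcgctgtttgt
SPRY2: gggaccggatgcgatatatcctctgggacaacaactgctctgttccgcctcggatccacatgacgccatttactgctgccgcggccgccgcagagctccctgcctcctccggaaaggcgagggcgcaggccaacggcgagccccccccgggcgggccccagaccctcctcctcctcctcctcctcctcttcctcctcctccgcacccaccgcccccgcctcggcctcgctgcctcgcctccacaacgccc
PHLDA1: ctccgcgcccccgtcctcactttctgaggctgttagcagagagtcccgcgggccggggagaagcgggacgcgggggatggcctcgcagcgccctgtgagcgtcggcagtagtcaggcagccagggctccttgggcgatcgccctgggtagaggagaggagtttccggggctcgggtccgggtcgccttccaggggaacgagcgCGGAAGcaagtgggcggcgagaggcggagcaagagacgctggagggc

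The table held windows for 6 of the 10 genes: DUSP6, PHLDA1, SPRED1, SPRED2, SPRY2 and SPRY4. On either strand, CGGAAG occurred in 2 of these 6 windows (DUSP6 and PHLDA1, 1 match each) and in 16.5% of all 35116 windows of that length. The AP-1 letters TGANTCA occurred in 0 of 6 and in 6.57% of all windows, and the cyclic AMP response letters TGACGTCA in 0 of 6 and 1.65%. A match is a description of letters only, and its absence covers this window only.

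The levels of the 10 genes can be compared with one another only per length. With the longest coding transcript of GENCODE v29 as the length, mean levels over the 6 libraries were 19.9 ± 6.50 CPM per kilobase for SPRY2, 13.3 ± 5.36 for DUSP6, 10.3 ± 4.34 for ETV5 and 8.67 ± 2.30 for SPRED2 (SD, n = 6). These 4 were also the top 4 with the median transcript length, in another order, and DUSP6, ETV5 and SPRED2 differ from their neighbour in this order by less than the spread, while SPRY2 stood above DUSP6 by about its own SD. PHLDA1 and DUSP5 were the lowest by both lengths, at 2.77 ± 2.59 and 1.44 ± 0.473 CPM per kilobase (SD, n = 6) with the longest one.

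Among the relatives of these genes, 10 of 11 were tested and 0 passed the adjusted test. Of these, 8 had a negative and 2 a positive log2 difference, with a median of −0.84, and without the library labelled as scrambled control 2 the count was 4 negative and 6 positive with a median of 0.37. DUSP2, a nuclear phosphatase induced in activated blood cells, was at 18.8 ± 2.28 CPM under the PRMT5 hairpin and 35.9 ± 22.3 CPM in the control libraries (SD, n = 3 each; log2 difference −0.94, SE 0.42, edgeR adjusted p = 0.926). Controls 1 and 3 held 25.1 and 21.1 CPM of DUSP2, beside 61.6 CPM in the library labelled as scrambled control 2. DUSP10, which acts mainly on JNK and p38, had −0.74 and DUSP1, an early-induced phosphatase, had −1.42. Without the library labelled as scrambled control 2 the log2 differences of DUSP2, DUSP10 and DUSP1 were −0.30, −0.043 and 0.42. That library held 27.4 CPM of DUSP1, against 2.12 to 5.22 CPM in the other 5. SPRY3, a further Sprouty gene named here after its values were seen, was the 1 relative whose groups did not overlap (3.14% of all genes did so in that direction), at 2.14 to 2.61 CPM under the PRMT5 hairpin and 0.130 to 1.92 CPM in the controls. DUSP9 was not tested, with at most 1 estimated count in any library.

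Genes of the relay itself, from FLT3 through the adaptors, RAS, RAF, MEK and ERK to the ribosomal S6 kinases and ELK factors, were all tested. Of these 29 genes 0 passed, 17 having a negative and 12 a positive log2 difference with a median of −0.11. Without the library labelled as scrambled control 2 there were 13 and 16, with a median of 0.028. PEA15, which holds ERK in the cytoplasm, was the only one of the 29 whose groups did not overlap, against the same 3.14% of all genes. It was at 133, 176 and 115 CPM under the PRMT5 hairpin and 101, 92.3 and 98.2 CPM across the libraries labelled as scrambled control 1 to 3. All 3 knockdown libraries of PEA15 were higher, by a log2 difference of 0.54 (SE 0.22, edgeR adjusted p = 0.926), which was 0.51 without the library labelled as scrambled control 2. ELK4, an ETS partner of serum response factor, was at 453 CPM in that library and at 93.7 to 124 CPM in the other 5, so its −0.97 became 0.076 without it. BRAF, the RAF kinase gene, had −0.52 with that library and −0.14 without it.

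Other ERK output genes divided evenly, 5 negative and 5 positive, with 0 of 10 tested genes called and a median of 0.14. Without the library labelled as scrambled control 2 there were 3 negative and 7 positive, with a median of 0.22. FOS, a subunit of the AP-1 factor, was at 25.6, 23.6 and 28.7 CPM under the PRMT5 hairpin, at 53.5 and 29.1 CPM in control libraries 1 and 3, with 262 CPM in the library labelled as scrambled control 2. The groups did not overlap for FOS, as for 3.10% of all genes in that direction, although knockdown 3 and control 3 were 28.7 and 29.1 CPM. Its log2 difference of −2.14 (SE 0.76, edgeR adjusted p = 0.926) was −0.67 without the library labelled as scrambled control 2. EGR1, an early zinc-finger factor, was at 301 CPM in that library and at 8.20 to 34.3 CPM elsewhere, and its −2.66 became −0.31. LIF, a cytokine gene, was higher in knockdown without overlap between the groups, as for 3.14% of all genes in that direction. It was low, at 3.29 ± 0.619 and 1.98 ± 0.641 CPM (SD, n = 3 each), with a log2 difference of 0.73 (SE 0.40, edgeR adjusted p = 0.926). EGR3, EPHA2 and EPHA4 were below the count filter.

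**Figure D5:**
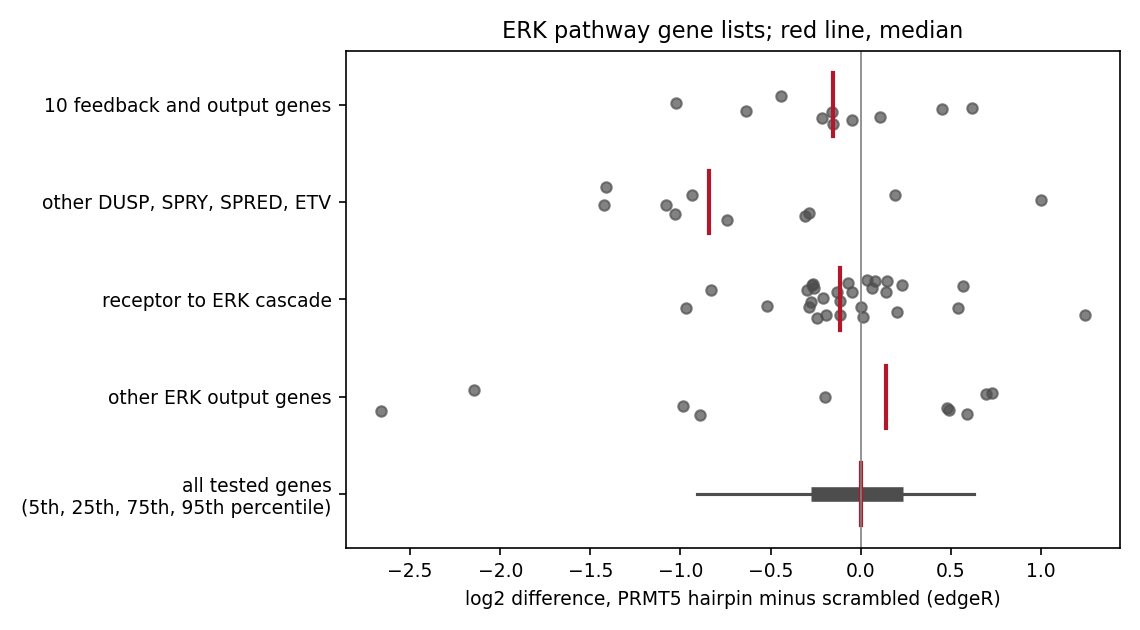
Log2 differences from edgeR, PRMT5 hairpin minus scrambled, for each tested gene of the 4 ERK lists (points, spread vertically for visibility only), with the list medians as red lines. The bottom row gives all tested genes, with 25% to 75% as the thick bar (−0.28 to 0.24) and 5% to 95% as the thin one (−0.91 to 0.63). The list medians are −0.16, −0.84, −0.11 and 0.14 from top to bottom.

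DUSP6 was used to look for genes with a like pattern, by Pearson's r of log2 CPM over the 6 libraries among 11065 other genes averaging at least 5 CPM. The closest were AAK1, an endocytic adaptor kinase gene (r = 0.990), ERRFI1, which encodes a feedback inhibitor of the EGF receptor (0.986), LPHN3, a latrophilin receptor gene (0.977), and GLUL, which encodes glutamine synthetase (0.977). The values were chosen as the highest and 6 libraries from 1 cell line stand behind each, so they are a description with no test. ERRFI1 showed the DUSP6 order closely, at 29.9, 27.9 and 11.6 CPM in knockdown libraries 1 to 3 and 39.8, 26.9 and 11.9 CPM across the libraries labelled as scrambled control 1 to 3. Like DUSP6, all 4 genes were highest or second highest in control 1 and lowest in the libraries numbered 3.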

How the data were processed

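RNA-seq of 6 poly(A) libraries was analysed, 3 per hairpin, grouped by title. Each deposited table holds the estimated counts of 1 library, unscaled for depth. With rows at 0 counted as whole, 40.3% to 42.3% of entries were whole (tolerance 1e-06). CASAVA 1.9, TopHat2 version 2, edgeR and build hg19 are named, without roles, per the submitters' processing notes. How reads were counted, on which annotation and with which strand setting is not given in the sources used here, so overlapping or antisense genes may share reads.

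Counts were rounded, filtered with filterByExpr (minimum count 10) and fitted over all genes with edgeR 4.0.16 in R 4.3.3 (TMM, quasi-likelihood test, group as the only term, two-sided, Benjamini-Hochberg adjustment, threshold 0.05). SEs and 95% intervals come from that fit, and the prior count for log2 CPM was 2. No exact permutation test was run, since 3 libraries against 3 reach no p below 0.1.

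The members and lists were chosen with earlier results of these data known. Named were all members, PRMT5, the 3 genes with the smallest p in each other list, and the 4 genes most like DUSP6. ANPEP, LYZ, MPO and the other markers, and DUSP9, EGR3, EPHA2 and EPHA4, were named after their values were seen. So were the relatives SPRY1, SPRY3, DUSP8, DUSP16 and SPRED3.

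Both groups carry the numbers 1 to 3. Deviations from group means correlated over genes at 0.127, 0.394 and 0.566 for libraries of the same number, each over 0.1. The numbers were treated as pairs in the block fit and in the same-number differences, but not in the main fit. This pairing comes from the values, and knockdown 2 with control 1 also had 0.164. Alternatives were 3 other scalings, 2 other filters, DESeq2 1.42.0, limma-voom (limma 3.58.1), the replicate block, each library left out, and both libraries numbered 2 left out. Intervals cover these libraries only, and reads were counted without molecular identifiers.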

Additional observations from a re-analysis of the deposited data

How the results depend on the processing

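No alternative called any of the 10 genes or any other gene after adjustment. With the replicate number as a block, which treats same-numbered libraries as pairs, 0 genes were called and 436 had an unadjusted p under 0.05, against 242 without it, and no call changed. The median log2 difference of the 10 genes was −0.16 and ran from −0.35 to 0.067 when 1 library was left out. The count of the 10 genes whose groups did not overlap ran from 0 to 3 when 1 library was left out, where 9.98% to 26.7% of all genes did not overlap (21.3% in the fit with 3, without knockdown 3). It was 1 (SPRED1, lower) without both libraries numbered 2, where 19.7% of all genes did not overlap. Fewer libraries make separation easier by construction.

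The sign of a log2 difference turned in 11 instances, none past a threshold, among them PHLDA1, whose difference was the largest of the 10. DUSP6 was at 0.13 without knockdown 3 and 0.27 without control 1. SPRED2 was at 0.081 without scrambled control 2 and 0.10 without both libraries numbered 2. SPRY2 was at 0.017 under total counts, 0.20 without knockdown 3, 0.23 without scrambled control 2 and 0.013 without both libraries numbered 2. SPRY4 was at −0.043 without knockdown 2 and −0.10 without both libraries numbered 2, and PHLDA1 at 0.17 without scrambled control 2. With 1 library left out, the values ran from −0.45 to 0.27 for DUSP6, −0.39 to 0.081 for SPRED2, −0.32 to 0.23 for SPRY2, −0.043 to 0.24 for SPRY4 and −1.46 to 0.17 for PHLDA1. The other 5 kept their sign, at 0.12 to 0.96 for DUSP4, −0.74 to −0.19 for DUSP5, −0.23 to −0.042 for SPRED1, −0.93 to −0.32 for ETV4 and 0.17 to 0.83 for ETV5. The cause was not tested. Counts were fewest for DUSP5, at 39.1 to 86.0 per library.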
